A study of Mus musculus with 12 samples.

Results

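The 10 genes of DNA replication licensing and S phase examined in mouse liver were the 6 subunits of the MCM helicase (Mcm2, Mcm3, Mcm4, Mcm5, Mcm6 and Mcm7), the helicase loaders Cdc6 and Cdt1, the sliding clamp Pcna and the ribonucleotide reductase subunit Rrm2. They were taken by symbol from the reverse-strand gene counts, so these were 10 of the 52636 genes listed in each library, and 9 of the 10 reached the mean count of 12 set for testing, as did 12453 genes in all. Cdc6, with a mean count of 3.08 and no more than 6 reads in any library, did not.

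The livers came from male C57Bl/6J offspring at 16 weeks of age. The VDD-F1 group (n = 6) had dams whose food lacked vitamin D from before mating until delivery and who received calcium gluconate, and the VDS-F1 group (n = 6) had dams whose food held enough of it. All mothers were moved to vitamin D sufficient food at delivery and offspring of both groups ate it after weaning, and since levels recover slowly the contrast covers early suckling as well as prenatal life, with the calcium supplement in the VDD-F1 group only. Total RNA of the left lateral lobe was sequenced after ribosomal RNA removal, without sorting of cells, so each value is an average over every cell type of the lobe. Litters were not given for the 12 mice, so p-values measure the spread between these mice only, some of which may share a dam.

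The MCM subunits form a ring of 6 proteins that is loaded onto DNA in G1 by the origin recognition complex together with Cdc6 and Cdt1, a step called licensing, and that unwinds DNA once S phase starts. Pcna then holds the polymerases on the template, and Rrm2 provides the deoxyribonucleotides. In the adult liver most hepatocytes rest outside the cell cycle and these genes are low, and the E2F transcription factors are known to drive many of them when cells re-enter the cycle.

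Promoter sequence is shown for 4 of the genes because their livers of highest level coincide in the values given later: Mcm5 and Mcm6, which had the widest spread between livers among the tested genes, Cdt1, which had the smallest p-value of the 10, and Rrm2, which shared the highest liver but varied differently elsewhere. Each window runs 5′ to 3′ on the strand of the gene, from 250 bases before to 50 bases after the RefSeq start in GRCm38.p6, and capitals mark matches to the E2F letters TTTCCCGC, TTTGGCGC, TTTCGCGC or TTTGCCGC on either strand. The windows lie at chr8:75109259-75109558 (plus strand) for Mcm5, chr1:128359656-128359955 (minus strand) for Mcm6, chr8:122567765-122568064 (plus strand) for Cdt1 and chr12:24708004-24708303 (plus strand) for Rrm2.
Mcm5: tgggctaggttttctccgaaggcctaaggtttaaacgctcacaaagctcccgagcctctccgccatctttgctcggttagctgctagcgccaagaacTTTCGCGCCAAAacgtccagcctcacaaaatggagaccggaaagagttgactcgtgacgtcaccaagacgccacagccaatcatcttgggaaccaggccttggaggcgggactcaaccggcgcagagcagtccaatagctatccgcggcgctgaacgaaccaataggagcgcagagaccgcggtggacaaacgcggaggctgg
Mcm6: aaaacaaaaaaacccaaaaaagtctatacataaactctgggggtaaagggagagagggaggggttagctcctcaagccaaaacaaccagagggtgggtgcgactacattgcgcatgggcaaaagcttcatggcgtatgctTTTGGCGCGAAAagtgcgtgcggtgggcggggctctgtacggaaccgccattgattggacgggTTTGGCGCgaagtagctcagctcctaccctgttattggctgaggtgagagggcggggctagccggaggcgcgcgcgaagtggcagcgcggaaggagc
Cdt1: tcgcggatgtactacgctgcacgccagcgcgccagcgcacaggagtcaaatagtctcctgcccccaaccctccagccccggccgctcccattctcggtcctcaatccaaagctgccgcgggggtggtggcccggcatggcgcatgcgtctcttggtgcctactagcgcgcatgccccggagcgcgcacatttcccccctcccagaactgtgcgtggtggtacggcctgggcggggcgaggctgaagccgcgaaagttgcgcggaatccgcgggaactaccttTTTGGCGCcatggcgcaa
Rrm2: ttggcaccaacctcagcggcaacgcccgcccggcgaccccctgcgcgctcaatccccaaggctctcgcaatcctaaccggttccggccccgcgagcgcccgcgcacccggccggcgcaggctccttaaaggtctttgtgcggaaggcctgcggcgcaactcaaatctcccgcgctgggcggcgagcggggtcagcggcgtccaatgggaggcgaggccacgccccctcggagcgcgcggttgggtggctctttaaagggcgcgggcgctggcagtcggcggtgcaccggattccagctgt

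A match to these letters was present in windows of 6 members: Mcm3, Mcm5, Mcm6, Mcm7, Cdc6 and Cdt1. Among all 32851 windows in the RefSeq table, 2.27% held one, and among the 72 windows of other replication genes 27.8% did. In Mcm5 and in the upstream site of Mcm6 the runs of 12 capitals are matches on opposite strands that overlap each other. The Rrm2 window held none of the letters, and neither did those of Mcm2 and Pcna. The CCAAT letters, searched on both strands, were in 8 of the 10 member windows, against 37.4% of all windows and 48.6% of those of other replication genes, and in Mcm7 one such match overlaps an E2F match. Mcm4 had no window in the table. A match is a string of letters and not a measured binding site.

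Library depth allowed the 9 tested genes to be read with modest precision. The 12 libraries held 25897868 to 36403413 fragments, of which 14275793 to 20815066 were counted on genes, and the 10 genes together took 0.00458% to 0.0114% of the counted fragments of a library. Markers of hepatocytes (8 genes, among them Alb and Apoa1) summed to 88360 to 117805 CPM (counts scaled to library size, with TMM factors) in every liver, and all 8 were far above the filter. One library, VDD2, stood apart: it was the highest of the 12 for 18.6% of all genes tested and for 8 of the 10 members, and its marker sums for dividing cells and recruited macrophages were the highest too. The diet differences of the tested members are therefore also given without VDD2. In VDS6, 11.1% of reads were assigned to no exon on the counted strand, against at most 4.94% elsewhere.

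None of the 9 tested genes passed the test of VDD-F1 against VDS-F1. The edgeR quasi-likelihood fit, with p-values adjusted by Benjamini-Hochberg, called 0 of 9 at an adjusted p under 0.05 and an absolute log2-fold change over 1, against a background of 0.0402% of all genes tested (0 of 9 and 0.0566% without VDD2, and 0 of 9 with every other library left out too, while the number of all genes called ran from 0 to 260), and the smallest adjusted p was 0.246 for Cdt1. At an unadjusted p under 0.05, 1 of the 9 was higher in VDD-F1 (Cdt1), where 9.55% of all genes were, and 0 were lower, where 6.29% were. DESeq2 also called 0 of 9, against 2.03% of all genes, and again Cdt1 alone had an unadjusted p under 0.05, with 9.89% of all genes having one and a higher value in VDD-F1. The log2-fold change was above 0 for 8 of the 9 genes, against 50.8% of all genes. Its median was 0.21, or 0.11 without VDD2, where the median of all genes was 0.0041 and 0.0047. Without VDD2 the values of Mcm2 (-0.11), Mcm4 (-0.26) and Rrm2 (-0.07) were below 0. The tested members varied together (median Pearson r 0.513 over 36 pairs), so their signs are not separate outcomes. In every member the ranges of the diet groups overlapped, whereas 0.61% of all genes were higher and 0.57% lower in every VDD-F1 liver than in every VDS-F1 liver. Bulk RNA cannot tell more or fewer cells of a type from more or less RNA per cell.

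**Figure D1:**
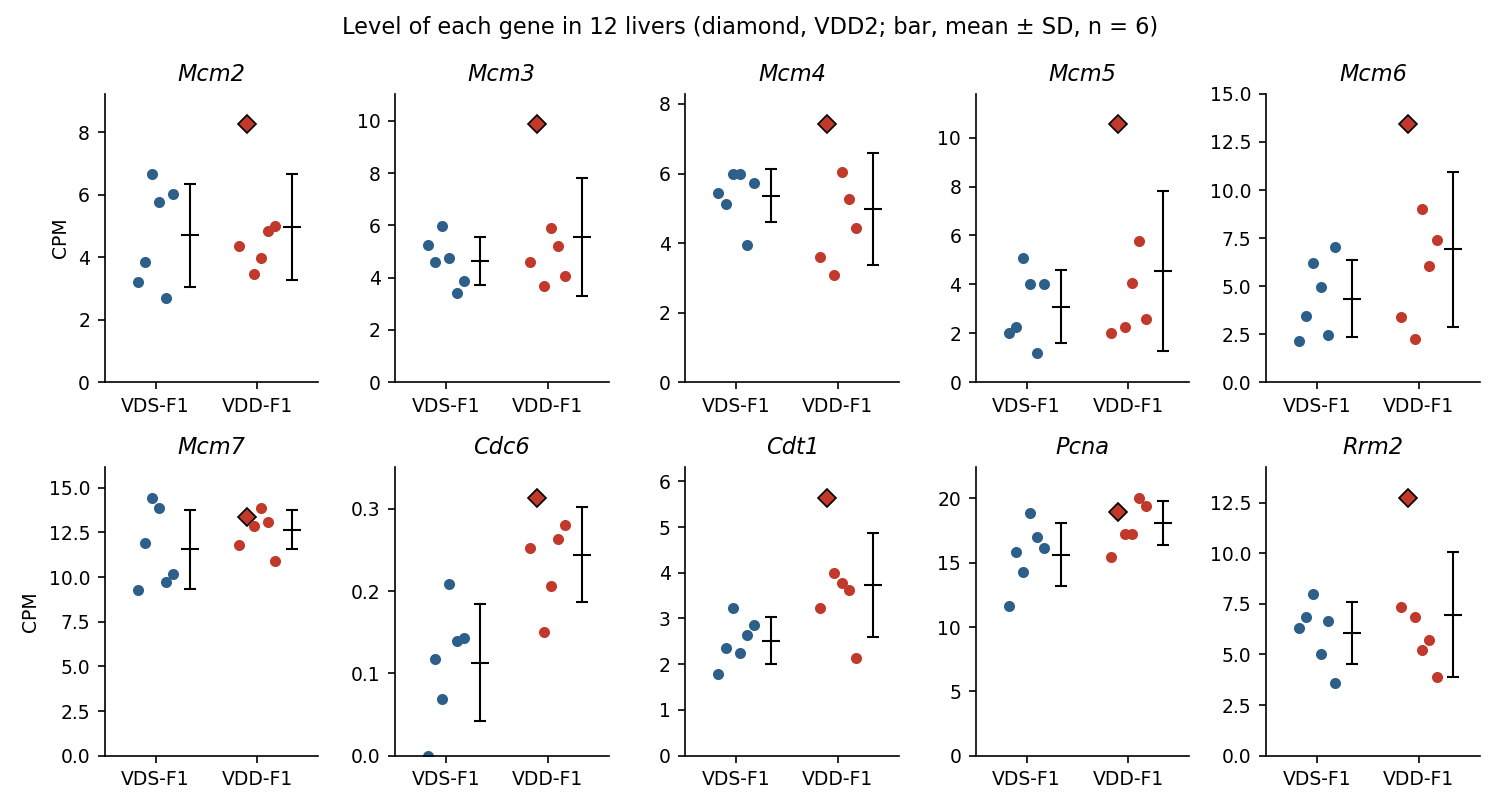
Level of each of the 10 genes in CPM (vertical axes, from 0) in the 6 VDS-F1 and 6 VDD-F1 livers, with 1 point per liver, VDD2 as a diamond and bars for mean ± SD. VDD2 is the highest point for 8 genes but not for Mcm7 or Pcna, and the groups overlap in every panel.

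The helicase subunits came first. Mcm2 (ENSMUSG00000002870.8, chr6:88883474-88898780, minus strand) ranged from 3.46 to 8.25 CPM in the VDD-F1 livers (median 4.597), and from 2.71 to 6.67 in the VDS-F1 livers (median 4.805). The 3 highest VDS-F1 livers lay above every VDD-F1 liver except VDD2. The fitted log2-fold change was 0.09 (SE 0.26, adjusted p = 0.906 by edgeR) with all livers, -0.11 without VDD2 and -0.024 without VDS5, so its direction was not stable.

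Mcm3 (ENSMUSG00000041859.10, chr1:20802968-20820312, minus strand) ranged from 3.69 to 9.86 CPM in the VDD-F1 livers (median 4.91), and from 3.40 to 5.98 in the VDS-F1 livers (median 4.67.) Only VDD2 exceeded the highest VDS-F1 liver. The log2-fold change of 0.26 (SE 0.23, adjusted p = 0.620 by edgeR) was 0.02 without VDD2.

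Mcm4 (ENSMUSG00000022673.4, chr16:15623897-15637400, minus strand) was the one tested member with a negative difference. It ranged from 3.09 to 7.41 CPM in the VDD-F1 livers (median 4.84), and from 3.96 to 5.98 in the VDS-F1 livers (median 5.58.) VDD1 and VDD3 were the 2 lowest of the 12 livers and VDD2 the highest. Its log2-fold change was -0.11 (SE 0.20, adjusted p = 0.845 by edgeR), and -0.26 without VDD2.

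Mcm5 (ENSMUSG00000005410.6, chr8:75109569-75128439, plus strand) had the largest coefficient of variation of the subunits in both diets. It ranged from 2.02 to 10.5 CPM in the VDD-F1 livers (median 3.31), and from 1.18 to 5.09 in the VDS-F1 livers (median 3.12). VDD2 held 4.11 times the median of the other 11 livers, the largest such ratio among the members, while VDD1, VDD3 and VDD6 sat in the lower part of the VDS-F1 range. The log2-fold change of 0.56 (SE 0.43, adjusted p = 0.558 by edgeR) was 0.12 without VDD2.

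Mcm6 (ENSMUSG00000026355.11, chr1:128331590-128359664, minus strand) had the largest difference among the 9 tested genes. It ranged from 2.26 to 13.4 CPM in the VDD-F1 livers (median 6.73), and from 2.12 to 7.01 in the VDS-F1 livers (median 4.18). VDD2, VDD4 and VDD6 exceeded every VDS-F1 liver, whereas VDD1 and VDD3 were among the 4 lowest of all. Its log2-fold change was 0.68 (SE 0.40, adjusted p = 0.423 by edgeR) and 0.38 without VDD2. Its 95% interval ran from -0.17 to 1.53, which leaves in it both no difference and a difference beyond the study's threshold of 1.

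Mcm7 (ENSMUSG00000029730.16, chr5:138164583-138172422, minus strand) was the one subunit whose highest liver was not VDD2. It ranged from 10.9 to 13.9 CPM in the VDD-F1 livers (median 13.0), and from 9.28 to 14.4 in the VDS-F1 livers (median 11.04). The highest liver was VDS3 and the lowest VDS1, so the VDD-F1 range fell inside that of VDS-F1. The log2-fold change of 0.13 (SE 0.13, adjusted p = 0.661 by edgeR) had a 95% interval of -0.14 to 0.40, and was 0.11 without VDD2. The exons of Mcm7 contain the miRNA genes Mir25 and Mir93 on the same strand and overlap Cops6 and Ap4m1 on the other, and 11.9% of its reads on both strands lay on the opposite strand, against at most 0.697% for the other members.

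The loaders were the lowest of the 10 genes in reads, and Cdt1 had the smallest p-value. Cdt1 (ENSMUSG00000006585.3, chr8:122568015-122573554, plus strand), which brings the helicase to origins and is destroyed in S phase, ranged from 2.14 to 5.64 CPM in the VDD-F1 livers (median 3.70), and from 1.78 to 3.23 in the VDS-F1 livers (median 2.50). In all, 4 of the 6 VDD-F1 livers exceeded every VDS-F1 liver, VDD1 lay just under the highest of them, and VDD6 sat at the second lowest level of the 12. The fitted log2-fold change was 0.57 (SE 0.23, 95% interval 0.08 to 1.06), with an unadjusted p of 0.0256 and an adjusted p of 0.246 by edgeR. Without VDD2 it was 0.41, with an unadjusted p of 0.0747 in the edgeR fit.

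Cdc6 (ENSMUSG00000017499.15, chr11:98907801-98923940, plus strand), the ATPase that recruits the helicase together with Cdt1, was almost undetected. It had 2 to 6 reads per VDD-F1 liver and 0 to 4 per VDS-F1 liver, where VDS1 had none, which allows up to 0.148 CPM in that library. In CPM, 4 VDD-F1 livers were above every VDS-F1 liver, but in reads 1 of them (VDD1) equalled the highest VDS-F1 liver (VDS4), at 4, and the others led it by 1 or 2. In a fit with no filter on low counts the log2-fold change was 1.08 (SE 0.69, adjusted p = 0.467 by edgeR), with a 95% interval of -0.36 to 2.51, so a difference was not detectable at this depth.

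Pcna (ENSMUSG00000027342.14, chr2:132249162-132253314, minus strand), the clamp that also serves DNA repair, had the narrowest interval of the 10. It ranged from 15.5 to 20.03 CPM in the VDD-F1 livers (median 18.1), and from 11.6 to 18.8 in the VDS-F1 livers (median 16.0). VDD5, VDD6 and VDD2 were above every VDS-F1 liver, and VDS1 was the lowest. The log2-fold change was 0.21 (SE 0.11, 95% interval -0.03 to 0.45, adjusted p = 0.389 by edgeR) and 0.20 without VDD2, so a change beyond the threshold of 1 lay outside the interval. Reads on its pseudogene copies were at most 6 per library.

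Rrm2 (ENSMUSG00000020649.11, chr12:24708241-24714146, plus strand), the subunit of ribonucleotide reductase made chiefly in S phase, ranged from 3.87 to 12.7 CPM in the VDD-F1 livers (median 6.29), and from 3.58 to 7.97 in the VDS-F1 livers (median 6.49). Only VDD2 was above the highest VDS-F1 liver, and VDD6 and VDS6 were the 2 lowest. On the log2 scale the difference was 0.20 (SE 0.26, adjusted p = 0.763 by edgeR) with all livers but -0.07 without VDD2.

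**Figure D2:**
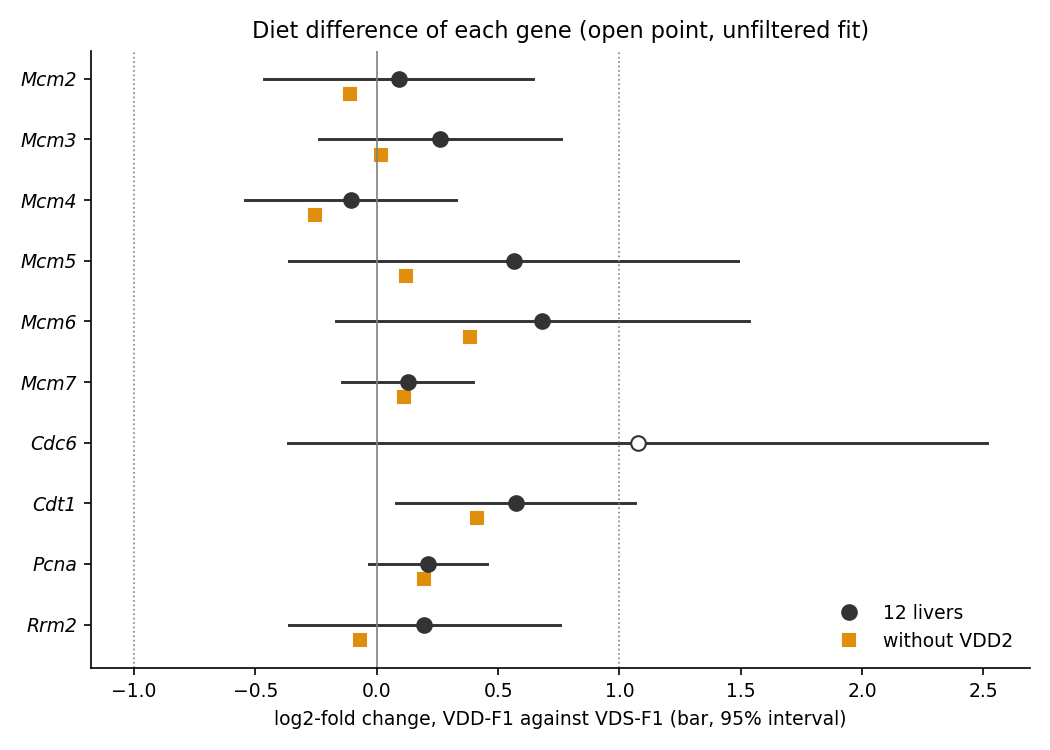
Fitted log2-fold change of VDD-F1 against VDS-F1 (horizontal axis) for each gene, with all 12 livers (circles, bars for the 95% interval) and without VDD2 (squares). Cdc6, an open circle, comes from the fit with no filter, and dotted lines mark the threshold of 1. The interval of Cdt1 alone, from 0.08 to 1.06, leaves out 0.

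Per kilobase of exon, Pcna was the most abundant of the 10 in VDS-F1 livers at 6.51 ± 1.02 CPM per kb (SD, n = 6), and its range did not overlap that of the next gene. Mcm7 followed at 2.61 ± 0.50 and Rrm2 at 2.19 ± 0.56, then Mcm4 at 1.496 ± 0.21, Mcm3 at 1.24 ± 0.25, Mcm6 at 0.93 ± 0.43, Cdt1 at 0.80 ± 0.16, Mcm5 at 0.77 ± 0.37 and Mcm2 at 0.68 ± 0.24. From Mcm7 to Mcm2 each gene's range over the VDS-F1 livers overlapped that of its neighbour in this order. Cdc6 was last at 0.022 ± 0.014 CPM per kb, apart from the rest. The length used joins all annotated exons of a gene, 6956 bases for Mcm2 against 3589 to 4666 for the other subunits, and the order depends on it. In CPM the VDS-F1 mean was 4.70 for Mcm2, 4.64 for Mcm3, 3.09 for Mcm5 and 11.6 for Mcm7. The subunits assemble into a ring with 1 copy of each, but these are levels of RNA and not of protein.

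The spread between mice of the same diet also differed between the genes. In VDS-F1 the coefficient of variation was 48.3% for Mcm5 and 46.3% for Mcm6, against 14.2% for Mcm4 and 15.7% for Pcna. In VDD-F1 it was 72.0% for Mcm5 and 58.3% for Mcm6, and 47.4% and 49.5% without VDD2, so both kept a wide spread without it. Mcm2 behaved otherwise, at 34.1% in VDD-F1 with VDD2 and 14.4% without it.

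The MCM subunits varied together across livers. Over the 12 libraries the 15 pairs of subunits had a median Pearson r of log2 CPM of 0.652, from 0.295 (Mcm4 with Mcm7) to 0.869 (Mcm2 with Mcm5). Without VDD2 the median was 0.595, and within the 6 VDS-F1 livers it was 0.706, where Mcm2 and Mcm5 reached 0.985. Pcna and Rrm2 were less even: Rrm2 reached 0.646 with Mcm3 and Pcna 0.519 with Mcm6, while Pcna with Rrm2 gave the lowest r of the 36 pairs of tested members, -0.12, and Mcm6 with Rrm2 gave -0.58 without VDD2. These are descriptions over libraries that share depth and scaling.

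**Figure D3:**
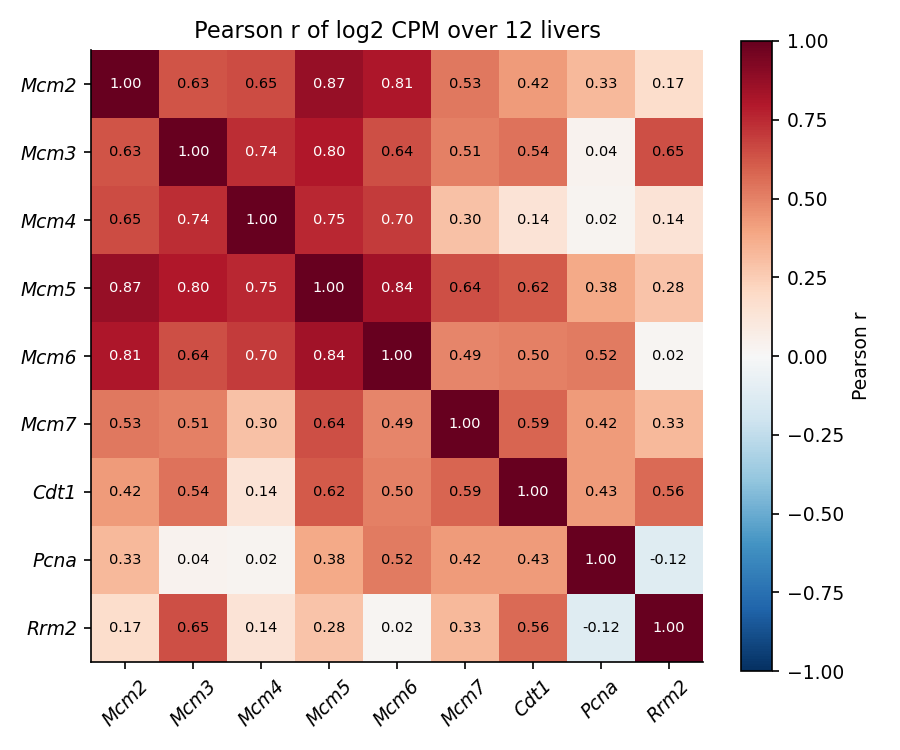
Pearson r of log2 CPM over the 12 livers for each pair of the 9 tested genes, from -1 (blue) to 1 (red). The block of MCM subunits spans 0.295 to 0.869, and Pcna with Rrm2 is the lowest pair at -0.12.

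The mean profile of all 10 members over the 12 livers, Cdc6 with its few reads included, was set against every other gene tested. Most like it were, by Pearson r, Ckap2l (0.937), Abcg1 (0.926), Cdk5rap2 (0.919), Jpt1 (0.919), Cdc20 (0.906), Ccna2 (0.904), Pitpnm1 (0.900) and Iqgap3 (0.896). Without VDD2 these 8 values ranged from 0.778 to 0.891. Cdc20 activates the anaphase-promoting complex, Ccna2 is the cyclin of S phase and G2, and Ckap2l is a spindle protein. Abcg1 exports cholesterol from cells. Ccna2 reached the mean count of 12 through the VDD-F1 livers only, with a mean count of 11.2 in VDS-F1. VDS-F1 levels averaged 0.694 CPM for Ccna2 and were lower still for Cdc20 (0.567), Ckap2l (0.400) and Iqgap3 (0.275). Abcg1, Jpt1, Cdk5rap2 and Pitpnm1 averaged 13.7, 8.08, 6.99 and 4.44 CPM there. The r values of Ccna2, Cdc20, Ckap2l and Iqgap3 are therefore given as description only.

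The samples also fall into sets by whether a liver weight was recorded for the mouse (3 VDD-F1 and 4 VDS-F1) or not (3 and 2, VDD2 among them). The diet difference of Cdt1 was 0.21 on the log2 scale in the recorded set and 1.06 in the other, that of Mcm5 0.20 and 1.23, that of Mcm6 0.54 and 1.22 and that of Mcm2 -0.20 and 0.62. Rrm2 stood at -0.24 and 0.46, Pcna at 0.19 and 0.33, Mcm3 at 0.16 and 0.31, Mcm7 at 0.06 and 0.26 and Mcm4 at -0.05 and -0.16. In neither set was a member called, where 4.3% of all genes in the recorded set and 0% in the other were. For 0 of 9 members did the diet difference differ between the sets at an adjusted p under 0.05 by edgeR's interaction test, where 0.0883% of all genes did, and the smallest unadjusted p was 0.0858, for Cdt1. With only 2 VDS-F1 livers in the second set, that test rested on few mice. Rrm2 was lower in the recorded set by edgeR with diet in the model (log2 difference -0.55, unadjusted p = 0.0361, adjusted p = 0.308), which did not pass, and 2.46% of all genes did.

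Other genes of the replication pathway were also tested, from lists ordered by their step at the fork. Of 72 genes in 9 lists, 60 were tested and 0 were called by edgeR. Uhrf1 and Chaf1b reached the mean count of 12 through the VDD-F1 livers only and are left out of the counts that follow, which cover the 58 genes that reached it in both groups. Of the 58, 8 (13.8%) had an unadjusted p under 0.05 and higher values in VDD-F1 and 0 had lower ones, against 8.56% and 6.28% of the 12061 genes that reached the mean in both groups. Their log2-fold change was above 0 for 39 (67.2%), against 49.8% of the 12061. Its median was 0.09, or 0.07 without VDD2, against -0.0007 and 0.0014 for the 12061. DESeq2 called 1 of the 58, Dbf4 (1.72%, against 1.53% of the 12061).

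Among genes of origin firing, Dbf4, the activating subunit of the Cdc7 kinase that starts the licensed helicase, ranged from 2.03 to 4.28 CPM in VDD-F1 and from 1.002 to 1.83 in VDS-F1. Every VDD-F1 liver was above every VDS-F1 liver, as for 0.61% of all genes. The log2-fold change of 1.005 (SE 0.24) had an adjusted p of 0.0874 by edgeR and 0.00832 by DESeq2, and was 0.86 without VDD2 (adjusted p = 0.152 by edgeR). Dbf4 and Uhrf1 are also among the DEGs that the study listed from these same libraries, so their direction is not independent evidence. In the same list Topbp1, a scaffold of helicase activation, stood at 0.34 (adjusted p = 0.233 by edgeR).

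Uhrf1, which brings the maintenance methyltransferase to newly copied DNA, ranged from 0.758 to 4.59 CPM in VDD-F1 and from 0 to 1.20 in VDS-F1. VDD2 was the highest and 4 VDD-F1 livers were above every VDS-F1 liver. Like Chaf1b, Uhrf1 was tested only because of the VDD-F1 livers, where its mean count was 33.5 against 7.83 in VDS-F1. The values of both are therefore given as description only. The log2-fold change of Uhrf1 was 1.96 (SE 0.62), with an adjusted p of 0.151 by edgeR and 0.0415 by DESeq2. Without VDD2 it was 1.45 (adjusted p = 0.310 by edgeR), and by set it was 1.30 in mice with a recorded liver weight and 3.84 in the others. Chaf1b, a subunit of the histone chaperone that works behind the fork, stood at 1.05 (adjusted p = 0.189 by edgeR).

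Of the nucleotide supply genes, Rrm1, the partner of Rrm2, stood at 0.45 on the log2 scale (adjusted p = 0.281 by edgeR). Lig1, the ligase that joins Okazaki fragments, stood at 0.82 and Rnaseh2b at 0.56 (adjusted p = 0.188 and 0.249 by edgeR). Rpa3, a subunit of the single-strand binding complex, stood at 0.78 (adjusted p = 0.159 by edgeR), and Rfc3 of the clamp loader at 0.30. Pole4 and Pola2 of the polymerases stood at 0.36 and 0.23. Gmnn, the inhibitor of Cdt1, stood at 0.37 with an adjusted p of 0.345 by edgeR, and Mcmbp at -0.14. The ubiquitin ligase scaffolds Cul4a and Cul4b, which act in the destruction of Cdt1, stood at -0.18 and 0.08, and the MCM relatives Mcm8 and Mcm9 at 0.40 and -0.18. None of these genes passed the test.

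**Figure D4:**
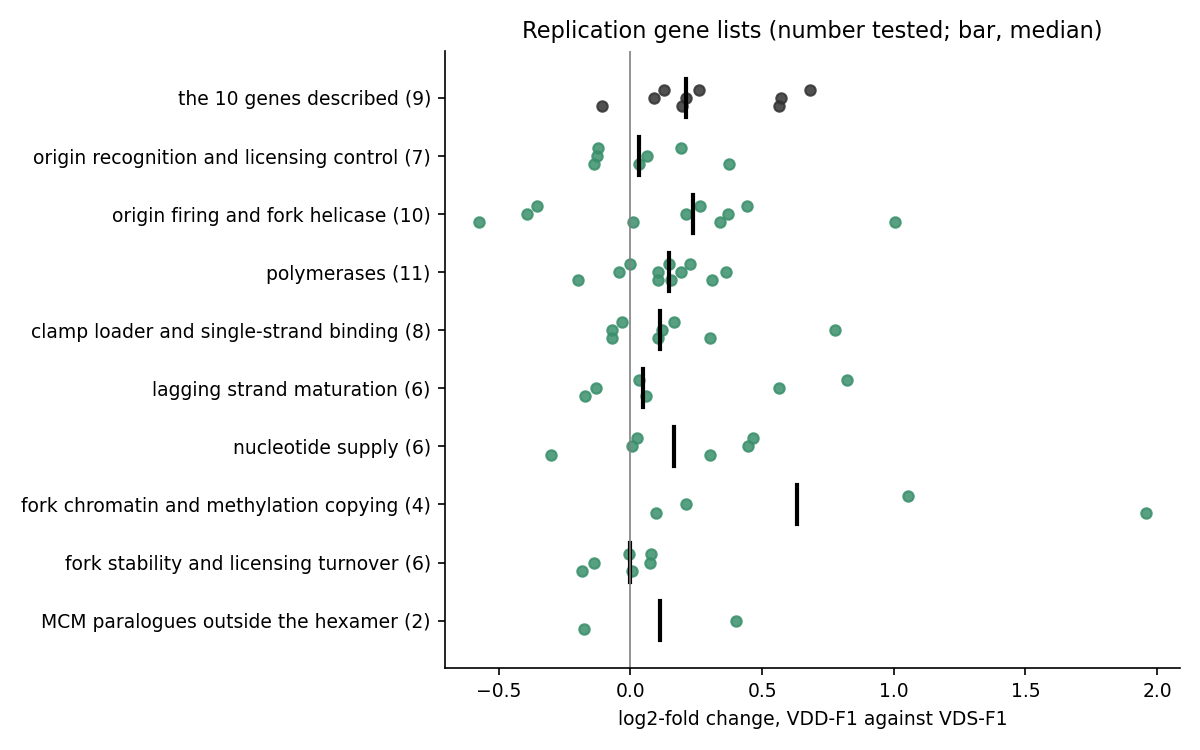
Log2-fold change of VDD-F1 against VDS-F1 (horizontal axis) for each tested gene of the 10 described and of 9 further replication lists, with 1 point per gene and a bar at each median. The median is 0.21 for the 9 tested members and the point farthest to the right is Uhrf1 at 1.96. Uhrf1 and Chaf1b, which reached the mean count of 12 through the VDD-F1 livers only, are drawn and enter the median of their list.

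Markers of dividing cells, called the mitosis list here, were read beside the replication genes and were spread differently between the diets. The list is not confined to mitosis, since it holds Ccna2, the cyclin of S phase and G2. The 10 chosen (Mki67, Top2a, Ccna2, Ccnb1, Cdk1, Bub1, Plk1, Aurkb, Birc5 and Cenpf) summed to 10.8 to 102 CPM across the VDD-F1 livers (median 23.3, second highest 28.3) and to 6.46 to 10.4 across the VDS-F1 livers. Every VDD-F1 sum was thus above every VDS-F1 sum, by a narrow margin at the lowest. Among single genes tested, 0.61% were separated in this way. The list was chosen with earlier results of these data known, so the separation of the sums is a description and not a test. The summed MCM level overlapped, at 27.6 to 62.8 CPM across VDD-F1 livers (median 37.3) and 23.4 to 44.3 CPM across VDS-F1 livers (median 33.96). Of the 9 mitosis markers tested, 7 reached the mean count of 12 through the VDD-F1 livers only, so no count or median over them is given. The other 2 were Mki67, with a log2-fold change of 1.98 (adjusted p = 0.0905 by edgeR and 0.0094 by DESeq2) and 1.20 without VDD2, and Top2a, at 1.43 (adjusted p = 0.181 by edgeR and 0.0563 by DESeq2) and 0.91 without VDD2. Among mice with a recorded liver weight edgeR called both, Mki67 at 1.30 (adjusted p = 0.00454) and Top2a at 1.38 (adjusted p = 0.0233), where 4.3% of all genes were called. Mki67 was also called by voom (where 2.02% of all genes were) and by edgeR with no filter on low counts (0.283%). With the filter, edgeR called it without VDD1 (2.09%) or without VDD3 (0.752%). All 9 tested members reached that mean in both groups.

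Within each diet the sums followed each other. The Pearson r of log2 MCM sum with log2 mitosis sum was 0.984 over the 6 VDS-F1 livers (Spearman rho 1) and 0.983 over the 6 VDD-F1 livers (rho 0.943), or 0.964 without VDD2. The mitosis sum was 23.6% to 27.8% of the MCM sum in VDS-F1 livers and 39.2% to 163% in VDD-F1 livers, or up to 70.5% without VDD2. Livers of the 2 diets with similar MCM sums therefore had different mitosis sums. No test was run on this ratio, which was formed after the values had been seen.

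**Figure D5:**
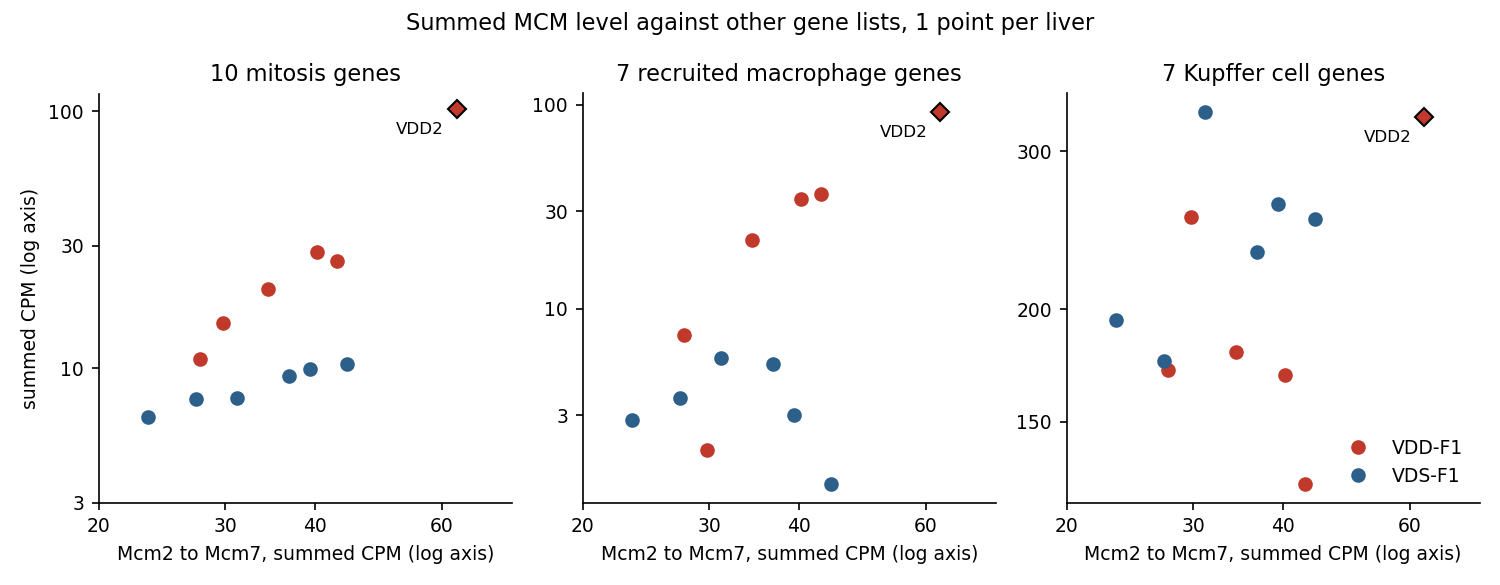
Summed CPM of the 6 MCM subunits (horizontal log axis) against the summed CPM of the mitosis, recruited macrophage and Kupffer cell lists (vertical log axes), with 1 point per liver and VDD2 as a diamond. In the mitosis panel the sums rise with the MCM sum within each diet, with VDD-F1 sums of 10.8 to 102 above VDS-F1 sums of 6.46 to 10.4.

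Markers of other cell types were read beside these genes. Monocyte and recruited macrophage markers (7 genes, among them Ccr2 and Trem2) summed to 2.02 to 92.0 CPM in VDD-F1 and 1.37 to 5.72 in VDS-F1, with VDD2 the highest. Of the 6 tested, 4 reached the mean count of 12 through the VDD-F1 livers only. The other 2 were Cx3cr1, with a log2-fold change of 2.52 (adjusted p = 0.113 by edgeR and 0.0358 by DESeq2), and Itgax, at 2.33 (adjusted p = 0.0918 by edgeR and 0.0026 by DESeq2). Among mice with a recorded liver weight edgeR called both, Cx3cr1 at 2.53 (adjusted p = 0.00431) and Itgax at 2.21 (adjusted p = 0.00436). Without VDD2 the highest VDD-F1 sum was 36.7 CPM. Kupffer cell sums were 128 to 327 and 175 to 332 CPM, stellate cell sums 270.1 to 657 and 259.5 to 384, and VDD2 was the highest VDD-F1 liver in both. Sums of T and NK cell markers were 1.88 to 8.93 and 2.70 to 5.42 CPM, those of B cells 0.377 to 6.11 and 1.33 to 2.83, and VDD2 was again the highest of the VDD-F1 livers. Neutrophil sums were 0.694 to 7.32 and 0.206 to 3.15 CPM, with Ly6g, Mpo and Elane under 12 reads in every library. Erythroid (278 to 672 and 243 to 1313 CPM), endothelial (215 to 266 and 206 to 291) and cholangiocyte sums (35.3 to 67.8 and 34.5 to 52.3) overlapped between the diets. At an unadjusted p under 0.05 by edgeR, 2 of 7 Kupffer cell, 2 of 6 endothelial, 2 of 8 hepatocyte and 1 of 2 tested T and NK cell markers were lower in VDD-F1, where 6.29% of all genes were. By the same measure 3 of 6 stellate cell, 2 of 5 tested cholangiocyte, 1 of 6 endothelial and 1 of 8 hepatocyte markers were higher, where 9.55% of all genes were. Over the 12 livers edgeR with the filter on low counts called none of these. DESeq2 called 1, the stellate cell marker Col1a1, where 2.03% of all genes were called. Col1a1 was also called by voom (2.02%) and by edgeR with no filter (0.283%). In mice with a recorded liver weight, where 4.3% of all genes were called, edgeR called Col1a1, Timd4 (Kupffer cell) and Epcam (cholangiocyte). Mki67, Top2a, Cx3cr1 and Itgax were called there too, as given above. Calls among markers that reached the mean count of 12 through the VDD-F1 livers only are not counted. The part of any of these cell types in the levels of the 10 genes was not tested.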

How the data were processed

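Liver RNA of 12 mice was measured, 6 per group. Per the labels and the study's methods, the authors trimmed the reads, aligned them to mm10 (GRCm38) with STAR and deposited its raw gene counts per library, with unstranded, forward and reverse columns. The reverse column was used, since it held 92.7% to 95.8% of stranded reads, although the setting is not given in the sources used here. Of 52636 identifiers, 52489 matched the GENCODE M21 annotation, which gave symbols, positions and exon lengths. Genes averaging 12 or more counts were kept, as in the study. Counts were scaled by TMM and tested with edgeR 4.0.16 (legacy quasi-likelihood form, R 4.3.3), with Benjamini-Hochberg adjustment over 12453 genes, and called at an adjusted p under 0.05 and an absolute log2-fold change over 1. DESeq2 1.42.0 and limma 3.58.1 (voom with quality weights) were alternatives, with others described at the end. Log2 CPM used a prior count of 2. Intervals are unadjusted 95% intervals, and the 0 count of Cdc6 was read against 3 counts.

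The members and all lists were chosen with earlier results of these data known. Named pathway genes were those with the 2 smallest p-values in each list (1 of them is not reported here), and most-like genes the 8 with the highest Pearson r with the mean standardised member profile. The hepatocyte list named Tf, which the annotation calls Trf. Numbers 1 to 6 mark different mice in the 2 groups. Tables were handled with Python 3.11.15, pandas 2.3.3 and NumPy 2.4.6, and figures drawn with matplotlib 3.10.9.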

Additional observations from a re-analysis of the deposited data

Results flagged for a closer look

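The values of 2 genes in 1 library were set apart from the rest of their group by Dixon's test at the 95% level, out of 20 groups of 6 examined (10 genes in each diet), of which chance flags about 1 in 20. Mcm2 stood at 8.25 CPM in VDD2, where the other VDD-F1 livers lay between 3.46 and 4.99, a gap of 0.681 of the group's range against a critical value of 0.625. Mcm3 stood at 9.86 CPM in VDD2, where the others lay between 3.69 and 5.90, a gap of 0.641 of the range. Both are the same liver, and VDD2 also had the highest mitosis and recruited macrophage sums, whose part in the Mcm2 and Mcm3 values was not tested.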

How the results depend on the processing

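The count of members called, 0 of those tested, was the same under all 23 alternatives, while the number of all genes called, 5 by edgeR over the 12 livers, was 260 without VDD1, 94 without VDD3, 252 by voom and 0 without VDD4, VDD5, VDD6, VDS3, VDS4 or VDS5. The number at an unadjusted p under 0.05 and higher in VDD-F1, 1 (Cdt1) in the edgeR fit, was 0 by voom, 0 among mice with a recorded liver weight and 2 (Cdt1 and Pcna) with the set of mice as a covariate. Leaving out single libraries gave 0 to 2, with 0 without VDD2 or VDS1 and 2 without VDD3 (Cdt1 and Mcm6) or VDS4 (Cdt1 and Pcna). The median log2-fold change of members ran from 0.11 to 0.32 over single libraries left out, and from 0.11 to 0.46 otherwise. Mcm2 and Rrm2, never called, took the opposite sign in 4 and 3 of the alternatives. Of the other replication genes, Dbf4 was called by DESeq2 (where 2.03% of all genes were) and among mice with a recorded weight (4.3%). It was also called without VDD1 (2.09%) and without VDD3 (0.752%). Uhrf1, called by DESeq2 alone, reached the mean count of 12 through the VDD-F1 livers only and is not counted. No other gene of these lists was called under any alternative. The causes were not tested. Depth limits Cdc6 most, with at most 6 reads.

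Same-numbered mice of the 2 diets did not deviate together (r from -0.076 to 0.103 over 6 pairs, with no library closest to its own number), so the numbers were not read as pairs. With a replicate block 0 members were called and 1 (Cdt1) had an unadjusted p under 0.05, of 0.0499 in edgeR's fit.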

Other observations

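Mcm10, a factor of helicase activation that lies outside the hexamer despite its name, was singled out after its values were seen. With 43.0 ± 15.9 CPM over the VDD-F1 livers and 55.1 ± 24.6 over the VDS-F1 livers (SD, n = 6), its diet difference was -0.36 on the log2 scale (adjusted p = 0.611 by edgeR). Mice with a recorded liver weight had 37.2 to 72.2 CPM (VDD-F1) and 50.6 to 84.5 (VDS-F1), and the other mice 29.1 to 44.2 and 19.9 to 34.5. The set difference with diet in the model was 0.94 on the log2 scale (adjusted p = 0.0487 by edgeR), where 2.46% of all genes tested had an adjusted p under 0.05, and none of the 9 tested members did.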
